A study of Mus musculus with 6 samples.

Results

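The osteoblast lineage transcription factors described here are 9 genes, *Runx1*, *Runx2*, *Cbfb*, *Sp7*, *Dlx5*, *Msx1*, *Msx2*, *Twist1* and *Twist2*, whose mouse symbols were matched to the Ensembl identifiers of the expression tables. All 9 were present among the 11234 genes measured. RNA-seq was performed on MC3T3-E1, an established mouse preosteoblast cell line labelled with strain C57BL/6 and passage 4, in 3 control libraries and 3 libraries of cells given 100 μmol/L cyanidin-3-O-glucoside (C3G), an anthocyanin pigment of plants. Both groups were first kept without serum for a day and then held in complete medium, with or without C3G, for a further day, and no osteogenic supplement is named for either. The deposited values are FPKM, fragment counts scaled by the authors for gene length and library size, so levels of different genes can be set side by side, but the reads behind a value are unknown and counting intervals could not be computed. The question was whether C3G altered the level of these regulators. The labels number the replicates without saying that they were separate cultures, so p-values measure only the spread between these libraries.

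RUNX2 is the DNA-binding factor without which osteoblasts do not form, RUNX1 is its relative best known from blood formation, and CBFB is the partner that both need for stable DNA binding. SP7 (osterix) acts downstream of RUNX2 as preosteoblasts commit to bone formation, and DLX5 is a homeodomain activator induced by bone morphogenetic protein (BMP) signalling. MSX1 and MSX2 are homeodomain proteins, mostly repressors, of skull and tooth progenitors, and TWIST1 and TWIST2 are basic helix-loop-helix proteins that bind RUNX2 and hold back its activity.

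No difference between C3G and control cells was detected for any of the 9 genes. A gene was called when limma's unadjusted two-sided p was below 0.05 and its fold change on the log2(FPKM + 1) scale reached 1.2, and by this rule 0 of 9 were called, beside 73 of all 11234 genes (0.65%). No gene in the table passed a Benjamini-Hochberg adjusted p of 0.05 in limma, where the smallest adjusted p was 0.497 and 74 genes had an unadjusted p under 0.05. The adjusted p in limma was 0.992 for each of the 9. The 9 genes spanned a wide range of levels, from *Cbfb* at a mean of 36.6 FPKM over the 6 libraries to *Sp7* at 0.542 FPKM. For 8 of the 9, a single library, control replicate 1, lay outside the range of the other 5, as it did for 78.9% of all genes.

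Control replicate 1 stood apart over the whole table and not only in these genes. Its log2 values correlated with those of the other libraries at r = 0.886 to 0.939 across genes, against 0.968 to 0.992 among the other 5. Median FPKM ranged from 5.80 to 7.40 among libraries, and 9 to 71 genes were listed at 0. Of the preosteoblast markers, 10 of 12 were measured, led by *Col1a1* and *Fn1* at means of 1706.9 and 1513.9 FPKM, and *Alpl* and *Thy1* were not analysed here. The summed level of these markers ranged from 4195.3 to 9246.1 FPKM in control and from 4289.0 to 5111.5 FPKM in C3G libraries. None of 6 endothelial markers was measured, 1 of 6 myogenic and 1 of 7 adipocyte markers was, and their levels stayed at or below 3.71 FPKM. Of the chondrocyte markers 4 of 8 were measured, led by *Sox9* at a mean of 65.5 FPKM and *Col2a1* at 52.0 FPKM. Of the epithelial markers 2 of 6 were, *Krt14* at 97.7 FPKM and *Cdh1* at 0.926 FPKM. Of the osteocyte markers 3 of 6 were, led by *Pdpn* at 88.8 FPKM and *Dmp1* at 9.31 FPKM, and of the macrophage and osteoclast markers 2 of 8, *Ctsk* at 30.3 FPKM and *Cd68* at 0.772 FPKM. The part of such marker genes in the results below was not tested. In bulk RNA, fewer cells expressing a gene and less RNA per cell cannot be told apart.

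The promoters of the RUNX genes are shown because they share a stretch of sequence with RUNX motifs in it. RefSeq promoter windows (GRCm38.p6) of 300 bases, 250 of them before an annotated start, were matched for 7 of the 9 genes, all but *Sp7* and *Dlx5*. In the windows of distal *Runx1* at chr16:92826025-92826324 and of *Runx2* at chr17:44814578-44814877, both on the minus strand and printed 5′ to 3′ along the gene, capitals mark the RUNX core TGTGGT, here read as its reverse complement ACCACA.
Runx1 distal promoter: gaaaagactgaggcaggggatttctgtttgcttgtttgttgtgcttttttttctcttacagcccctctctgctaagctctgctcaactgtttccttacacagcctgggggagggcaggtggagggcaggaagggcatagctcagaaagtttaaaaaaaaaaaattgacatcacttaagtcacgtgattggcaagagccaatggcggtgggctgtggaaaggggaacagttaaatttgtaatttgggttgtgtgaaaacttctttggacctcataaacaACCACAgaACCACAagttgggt
Runx2 promoter: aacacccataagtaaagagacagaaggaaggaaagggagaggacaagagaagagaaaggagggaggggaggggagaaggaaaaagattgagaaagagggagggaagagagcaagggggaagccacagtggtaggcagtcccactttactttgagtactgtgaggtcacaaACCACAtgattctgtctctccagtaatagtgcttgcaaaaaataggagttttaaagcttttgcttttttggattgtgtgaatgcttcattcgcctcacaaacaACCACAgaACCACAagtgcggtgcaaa
The distal *Runx1* window held 2 cores, 28 and 36 bases after the start, and the *Runx2* window held 3, at 80 bases before and 23 and 31 bases after it. The pair after the start lies in both genes within an identical run of 22 bases, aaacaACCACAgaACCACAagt, which occurs in 0 other windows of the 32851 searched. A RUNX core on either strand was found in 16.8% of all windows and at least 2 in 1.81%. Both windows were poor in G and C, at 45.0% for distal *Runx1* and 45.3% for *Runx2*, beside a median of 52.7% over all windows. The proximal *Runx1* window, at chr16:92697280-92697579 with a GC content of 69.0%, held 0 RUNX cores. FPKM values are per gene, so transcripts from the distal and proximal *Runx1* starts were not separated. The 13 annotated transcripts of *Runx2*, for which only the window shown was matched, were not separated either.

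The windows of *Cbfb*, at chr8:105170424-105170723 on the plus strand, and *Msx1*, at chr5:37824536-37824835 on the minus strand, are shown because these genes departed most, and in opposite directions, in control replicate 1. Capitals mark the GC box GGGCGG, or its reverse complement CCGCCC.
Cbfb promoter: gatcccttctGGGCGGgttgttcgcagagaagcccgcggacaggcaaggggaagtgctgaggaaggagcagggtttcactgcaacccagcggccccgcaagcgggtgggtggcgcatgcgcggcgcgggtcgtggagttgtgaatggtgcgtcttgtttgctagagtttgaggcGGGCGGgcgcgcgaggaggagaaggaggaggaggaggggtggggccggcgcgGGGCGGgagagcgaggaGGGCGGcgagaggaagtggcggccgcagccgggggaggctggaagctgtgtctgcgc
Msx1 promoter: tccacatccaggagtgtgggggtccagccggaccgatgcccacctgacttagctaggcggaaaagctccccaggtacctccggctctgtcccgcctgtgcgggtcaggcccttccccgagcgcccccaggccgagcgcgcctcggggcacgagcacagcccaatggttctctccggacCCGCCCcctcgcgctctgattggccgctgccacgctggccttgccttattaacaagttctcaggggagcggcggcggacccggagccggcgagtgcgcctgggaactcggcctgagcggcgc
Their windows were alike in GC content, 69.7% for *Cbfb* and 70.0% for *Msx1*, and held 4 and 1 GC boxes, a motif present in 35.7% of all windows. Their transcripts were not alike, with 42.5% GC for *Cbfb* and 58.2% for *Msx1*. The remaining windows, of *Msx2*, *Twist1* and *Twist2*, held 1, 1 and 4 GC boxes and 0 RUNX cores. The homeodomain motifs TAATTG and TAATTA, present in 12.4% of all windows, were found in *Msx2* only among the windows of the 9 genes. An E-box, CANNTG, the kind of site that TWIST proteins bind with E proteins, was found in 72.3% of all windows. The distal *Runx1* window held 3 E-boxes, the *Runx2* window 2, and those of *Twist1* and *Twist2* 0.

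**Figure D1:**
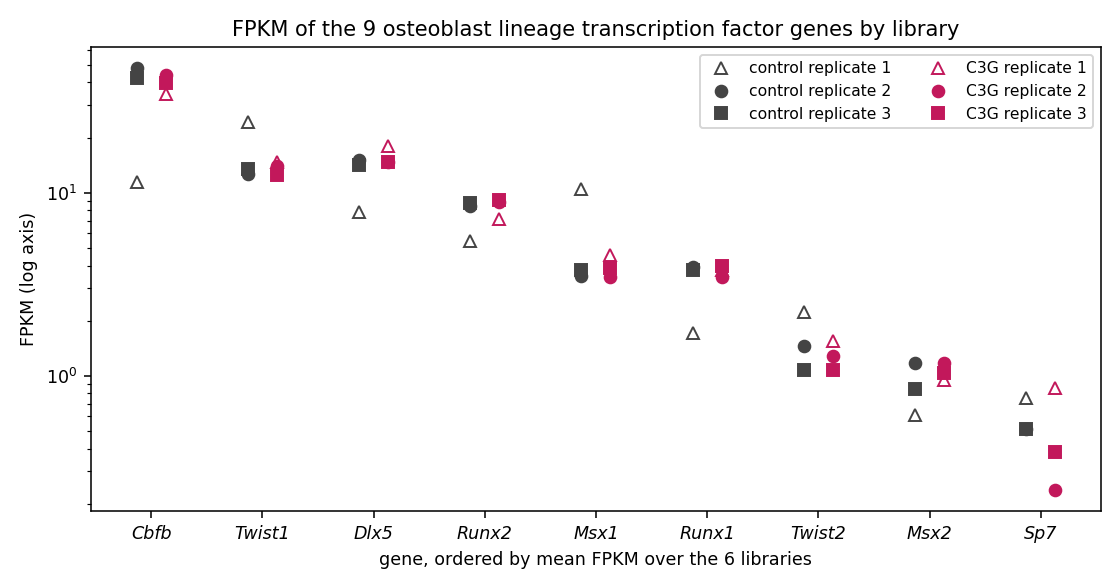
FPKM of each of the 9 genes (log axis) in every library, ordered by mean level, with control libraries in grey, C3G libraries in magenta and replicate 1 of each group as open triangles. The open grey triangle of control replicate 1 lies apart from the other 5 libraries for 8 of 9 genes, while the C3G libraries overlap control replicates 2 and 3.

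Among the RUNX genes, *Runx2* (ENSMUSG00000039153.16, chr17:44495987-44814797, minus strand of GRCm38) measured 5.46, 8.49 and 8.81 FPKM in the control libraries, given here and below in the order of replicates 1, 2 and 3, and 7.14, 8.92 and 9.07 FPKM in those with C3G. The groups overlapped, replicate 1 was the lowest library in each, and the C3G value was higher than the control value within all 3 replicate numbers. The same held for *Msx2* alone among the other 8 genes, and one direction in all 3 pairs was found in 25.9% of all genes. The means were 7.59 ± 1.85 FPKM in control and 8.38 ± 1.07 FPKM in C3G cells (SD, n = 3 per group). The log2 difference, C3G minus control on the log2(FPKM + 1) scale, was 0.15 with a 95% interval of -0.37 to 0.66 (exact permutation p = 0.5). With the replicate number as a block, the adjusted p in limma was 0.794 for *Runx2*, as for each of the 9 genes. The exact permutation test with 3 against 3 libraries cannot go below 0.1. On this scale the change of a gene with a low level is understated.

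*Runx1* (ENSMUSG00000022952.16, chr16:92601466-92826149, minus strand) lay lower, at 1.71, 3.94 and 3.77 FPKM in control and 3.79, 3.48 and 3.96 FPKM in C3G libraries. Control replicate 1 alone was low, and the other 5 libraries lay between 3.48 and 3.96 FPKM with a coefficient of variation of 5.04%, the smallest of the 9 genes. The log2 difference was 0.25 with a 95% interval of -0.36 to 0.86 over all libraries (exact permutation p = 0.6). It was -0.03 with an interval of -0.32 to 0.25 without control replicate 1.

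*Cbfb* (ENSMUSG00000031885.14, chr8:105170674-105217989, plus strand) measured 11.4, 47.7 and 42.1 FPKM in control and 34.8, 44.0 and 39.5 FPKM in C3G libraries. Control replicate 1 held 0.253 times the mean of the other control libraries, and all 3 C3G values lay below control replicate 2. Its log2 difference, 0.44 with an interval of -0.76 to 1.65 (exact permutation p = 0.9), was the largest of the 9 genes in size and had the widest interval. Without control replicate 1 it changed sign, to -0.19 with an interval of -0.52 to 0.15.

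Within each library the ratio of *Runx2* to *Runx1* does not depend on the scaling of that library. *Runx2* exceeded *Runx1* by 3.20, 2.15 and 2.34 times in the control and 1.88, 2.56 and 2.29 times in the C3G libraries. The log2 ratio differed by -0.18 between the groups (exact permutation p = 0.5). *Cbfb* exceeded the sum of *Runx1* and *Runx2* by 1.59 times in control replicate 1 and by 3.03 to 3.84 times in the other 5 libraries, and the log2 ratio differed by 0.25 between the groups (exact permutation p = 0.9).

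Another member of the family, *Runx3*, which was in the list of other osteoblast lineage factors and was singled out after its values were seen, was higher than *Runx2* in 6 of 6 libraries. It measured 9.62, 14.9 and 14.5 FPKM in control and 13.5, 15.6 and 14.4 FPKM in C3G libraries, and took 52.5% to 57.3% of the summed FPKM of *Runx1*, *Runx2* and *Runx3*. Its log2 difference between the groups was 0.17 (SE 0.202), and -0.02 without control replicate 1. Set against the sum of all 3 RUNX genes, *Cbfb* was 0.678 times as high in control replicate 1 and 1.42 to 1.75 times as high in the other libraries.

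*Sp7* (ENSMUSG00000060284.6, chr15:102356606-102367182, minus strand) was the lowest of the 9 genes, at 0.753, 0.512 and 0.510 FPKM in control and 0.857, 0.237 and 0.381 FPKM in C3G libraries. In neither group did all libraries lie on the same side of the other group, since C3G replicate 1 was the highest library and C3G replicates 2 and 3 were the lowest. Every gene of the table has a mean of at least 0.5 FPKM in at least 1 group, and *Sp7* met this in control cells, at 0.592 ± 0.140 FPKM, and not in C3G cells, at 0.492 ± 0.325 FPKM. Its log2 difference was -0.11 with an interval of -0.53 to 0.31 (exact permutation p = 0.6). It was the only one of the 9 genes that varied widely among the 5 libraries other than control replicate 1, with a coefficient of variation of 46.0% against 5.04% to 16.6% for the rest.

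*Dlx5* (ENSMUSG00000029755.10, chr6:6877805-6882085, minus strand) measured 7.86, 15.1 and 14.2 FPKM in control and 18.1, 14.8 and 14.7 FPKM in C3G libraries. C3G replicate 1 was the highest library and control replicate 1 the lowest, while replicates 2 and 3 of both groups lay between 14.2 and 15.1 FPKM. The log2 difference was 0.38 with an interval of -0.24 to 0.99 over all libraries (exact permutation p = 0.3, the smallest of the 9 genes). It was 0.10 with an interval of -0.23 to 0.43 without control replicate 1 and 0.01 with an interval of -0.20 to 0.21 in replicates 2 and 3 alone.

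The MSX genes went opposite ways in control replicate 1. *Msx1* (ENSMUSG00000048450.10, chr5:37820485-37824583, minus strand) measured 10.5, 3.50 and 3.76 FPKM in control and 4.57, 3.46 and 3.86 FPKM in C3G libraries. *Msx2* (ENSMUSG00000021469.9, chr13:53466884-53473074, minus strand) measured 0.612, 1.18 and 0.843 FPKM in control and 0.949, 1.18 and 1.03 FPKM in C3G libraries. For both genes the groups overlapped, and the C3G values of *Msx2* all lay above control replicate 3 and none exceeded control replicate 2 at the digits given. The log2 difference was -0.34 for *Msx1* with an interval of -1.23 to 0.54 (exact permutation p = 0.8), and 0.14 for *Msx2* with an interval of -0.22 to 0.50 (exact permutation p = 0.4). *Msx1* exceeded *Msx2* by 17.2 times in control replicate 1 and by 2.92 to 4.82 times in the other 5 libraries, so the difference in their log2 ratio of -0.70 between groups (exact permutation p = 0.6) became 0.05 without that library and -0.13 in replicates 2 and 3 alone. The ratio was lower with C3G within all 3 replicate numbers. The ratio of *Msx2*, which represses targets that *Dlx5* activates, to *Dlx5* ranged from 0.0523 to 0.0803 over all libraries, and control replicate 1, at 0.0779, lay inside that range.

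*Twist1* (ENSMUSG00000035799.6, chr12:33957671-33959829, plus strand) was the second most abundant of the 9 genes by mean, at 24.2, 12.7 and 13.5 FPKM in control and 14.8, 14.0 and 12.5 FPKM in C3G libraries. Control replicate 1 was highest, and the other 5 libraries lay within 12.5 to 14.8 FPKM with a coefficient of variation of 6.96%. *Twist2* (ENSMUSG00000007805.4, chr1:91801461-91848028, plus strand), at 2.22, 1.45 and 1.07 FPKM in control and 1.55, 1.28 and 1.08 FPKM in C3G libraries, was highest in replicate 1 of each group. The log2 differences were -0.22 for *Twist1* with an interval of -0.83 to 0.40 (exact permutation p = 0.8) and -0.14 for *Twist2* with an interval of -0.61 to 0.32 (exact permutation p = 0.7).

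The TWIST genes stood in a like proportion in every library, control replicate 1 included. *Twist1* exceeded *Twist2* by 10.9, 8.76 and 12.6 times in control and 9.53, 10.9 and 11.5 times in C3G libraries, and the mean log2 ratio was 3.41 ± 0.264 in control and 3.41 ± 0.142 in C3G cells. The ratio of *Twist1* to *Runx2*, of the repressor to the activator it binds, was 4.44 in control replicate 1 and 1.38 to 2.07 in the other 5 libraries. Its log2 value differed by -0.39 between groups (exact permutation p = 0.7), by 0.12 without that library and by -0.04 in replicates 2 and 3 alone.

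**Figure D2:**
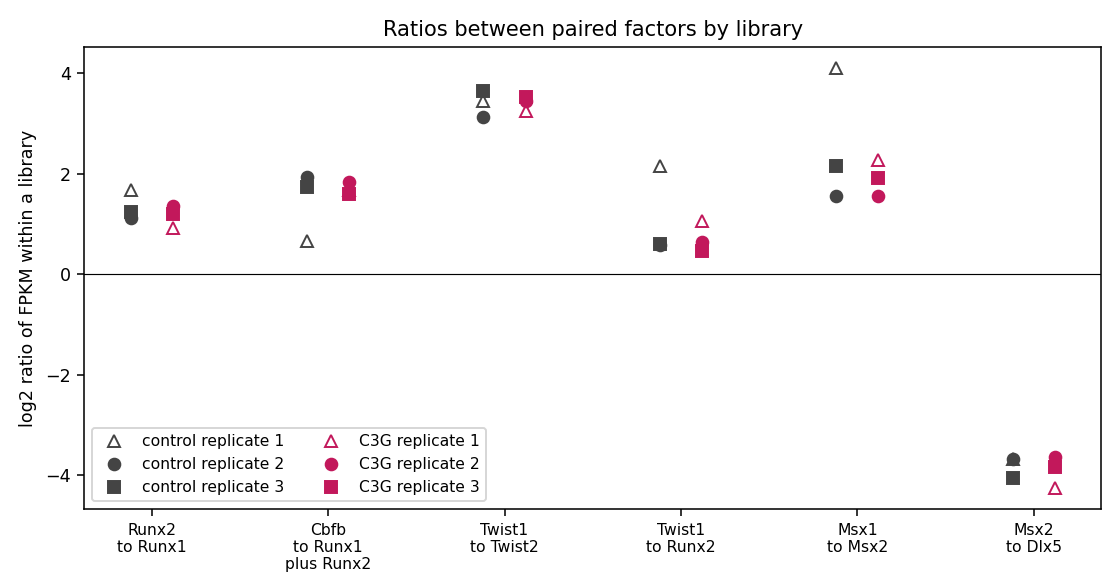
Log2 ratio of FPKM between pairs of factors within each library, with control libraries in grey, C3G libraries in magenta and replicate 1 as open triangles. Control replicate 1 stands above the other libraries in the ratios of *Runx2* to *Runx1*, *Msx1* to *Msx2* and *Twist1* to *Runx2* and below them in *Cbfb* to *Runx1* plus *Runx2*, and lies among them for *Twist1* to *Twist2*.

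By mean level over the 6 libraries the order was *Cbfb* (36.6 FPKM), *Twist1* (15.3), *Dlx5* (14.1), *Runx2* (7.98), *Msx1* (4.94), *Runx1* (3.44), *Twist2* (1.44), *Msx2* (0.967) and *Sp7* (0.542). Of the 8 pairs of neighbours in this order, 2 held in 6 of 6 libraries, *Dlx5* above *Runx2* with a mean ratio of 1.74 and *Twist2* above *Msx2* with a mean ratio of 1.48. The order was set from these same libraries, so these counts are a description and no test of it is given. *Twist1* was above *Dlx5* only in control replicate 1, where the log2 ratio was 1.62. In the other 5 libraries that log2 ratio averaged -0.19 ± 0.105, so the order of this pair rested on 1 library. *Msx1* was above *Runx1* in 2 of 6 libraries, with a mean log2 ratio of 0.01 ± 0.161 without control replicate 1. The remaining 4 pairs held their order in 5 of 6 libraries.

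The departure of control replicate 1 went in different directions for different members. It was the lowest library for 5 genes, *Runx1*, *Runx2*, *Cbfb*, *Dlx5* and *Msx2*, the highest for 3, *Msx1*, *Twist1* and *Twist2*, and inside the range for *Sp7*. Of all genes, 50.2% were lowest and 28.6% highest in it. On the log2(FPKM + 1) scale, its departure from the mean of control replicates 2 and 3 was -1.89 for *Cbfb*, below all but 1.70% of genes, and 1.32 for *Msx1*, above 98.1% of genes. Transcript GC content ran from *Cbfb* at 42.5% and *Runx1* at 46.4%, both low in that library, to *Msx1* at 58.2% and *Twist1* at 59.3%, both high in it. *Dlx5* had a GC content of 54.7% and a departure of -0.82, and the part of GC content in these departures was not tested. After a correction for GC content the departure became 0.01 for *Twist1* and 0.56 for *Msx1*, and was -1.21 for *Cbfb* and -1.29 for *Dlx5*. It moved from -0.58 to -0.67 for *Runx2* and from 0.21 to -0.24 for *Sp7*. C3G replicate 1 departed from its group in the same direction as control replicate 1 for 7 of the 9 genes, beside 75.4% of all genes.

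**Figure D3:**
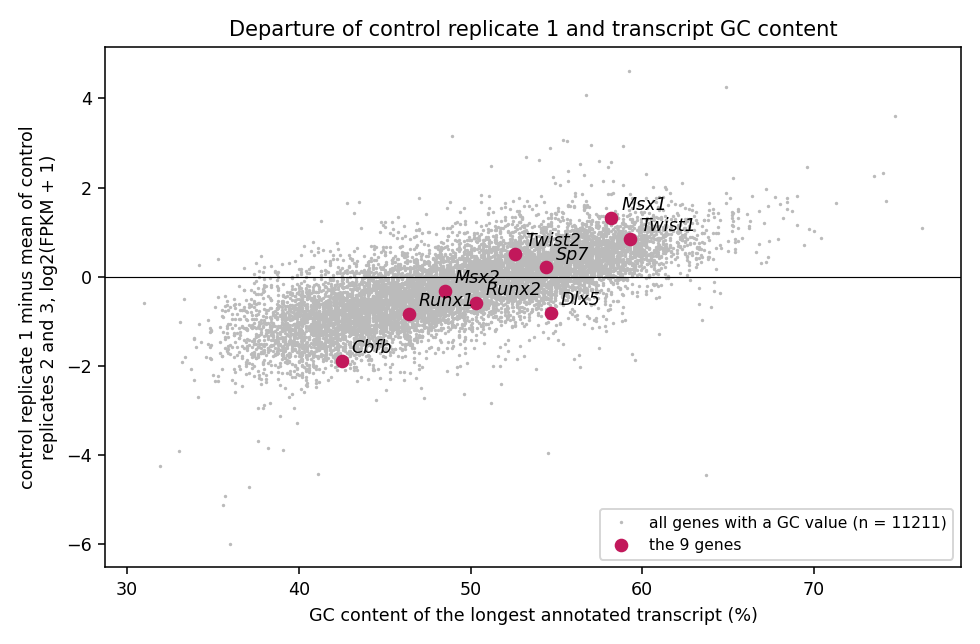
Departure of control replicate 1 from the mean of control replicates 2 and 3 (vertical axis, log2 of FPKM + 1) against GC content of the longest annotated transcript (horizontal axis, %), with the 9 genes in magenta over 11211 genes in grey. *Cbfb*, with 42.5% GC, lies at -1.89 and *Msx1*, with 58.2% GC, at 1.32, while *Dlx5* lies below genes of like GC content.

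Of the 9 log2 differences over all libraries 5 were positive and 4 negative, and 6 of the 9 changed sign without control replicate 1. The groups did not overlap for 0 of the 9 genes, beside 4.02% of all genes. Without control replicate 1, 0 of 9 were called beside 1.28% of all genes, and the bound farthest from 0 was -0.52, for *Cbfb*. With replicates 2 and 3 only, 0 of 9 were called beside 1.7% of all genes, and the largest difference was -0.21 for *Sp7*, with an interval of -0.49 to 0.07. With the replicate number as a block, 0 of 9 were called beside 1.5% of all genes, and with the block and a correction for GC content 0 of 9 beside 1.82%. These intervals do not show that the levels were the same, and in replicates 2 and 3 alone the bounds reached 0.39 upward for *Msx2* and -0.49 downward for *Sp7*.

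**Figure D4:**
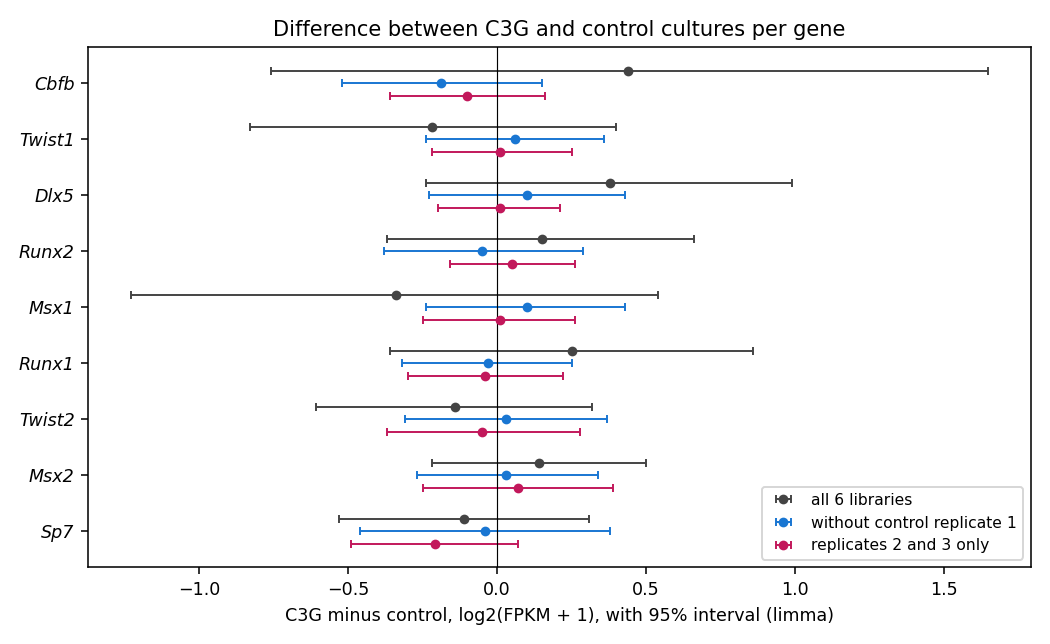
Difference between C3G and control libraries on the log2(FPKM + 1) scale with 95% limma intervals for the 9 genes, over all 6 libraries (grey), without control replicate 1 (blue) and in replicates 2 and 3 only (magenta). All intervals cross 0, and they are widest for *Cbfb* and *Msx1* over all libraries, and narrower without control replicate 1 except for *Sp7*.

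Genes that work with these factors had no call in the fit of all 6 libraries without the replicate block, and 2 with it, both among the bone targets. Of 26 other osteoblast lineage factors 17 were measured, and the median log2 difference was 0.06, equal to the 0.06 over all genes. The most abundant by the fixed rule were *Atf4*, which RSK2 phosphorylates in osteoblasts, at 140.6 ± 32.0 FPKM in control and 163.3 ± 26.4 in C3G cells, and *Six2*, a homeodomain factor, at 118.7 ± 54.5 and 99.6 ± 21.7 FPKM. Without control replicate 1 the log2 difference of *Atf4* went from 0.23 to 0.05 and that of *Six2* from -0.18 to 0.17. *Dlx2* and *Dlx1*, homeodomain relatives of *Dlx5*, had the smallest p of the list in limma, with log2 differences of -0.35 and 0.29 (adjusted p = 0.992 for both), which were -0.23 and 0.12 without control replicate 1. *Prrx1* and *Prrx2*, mesenchymal homeodomain factors named after their values were seen, averaged 70.9 and 51.9 FPKM, and were above *Cbfb* in 6 and 3 of the 6 libraries, and *Dlx6*, the neighbour gene of *Dlx5*, averaged 2.14 FPKM. *Dlx3*, *Hand2*, *Zbtb16*, *Gli2*, *Lef1*, *Tcf7*, *Lmx1b* and *Hey1* were not analysed here.

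Of 24 RUNX cofactors and regulators 22 were measured, with a median log2 difference of 0.06 and 0 calls. *Tle5*, a short relative of the Groucho corepressors, was among the 2 most abundant by mean, at 177.5, 73.4 and 63.3 FPKM in control and 103.8, 61.4 and 62.7 FPKM in C3G libraries. The ubiquitin ligase gene *Stub1*, the other of these and lower than *Tle5* only in replicate 1 of each group, ranged from 75.3 to 122.6 FPKM in control and from 72.3 to 91.7 FPKM in C3G libraries. *Kat6a*, an acetyltransferase that binds RUNX proteins, and the corepressor *Tle1* had the smallest p of the list in limma, with log2 differences of 0.25 and -0.32 (adjusted p = 0.992 for both), which were 0.15 and 0.02 without control replicate 1. The 7 E proteins and Id proteins, which are the dimer partners of TWIST proteins and their inhibitors, were all measured, with a median log2 difference of -0.13 and 0 calls. *Id4*, *Id3* and *Id1* averaged 89.5, 51.5 and 45.7 FPKM, and the log2 differences of *Id3* and *Id1* were -0.51 and -0.46 (adjusted p = 0.992 for both in limma). *Id3* measured 92.4, 45.2 and 48.2 FPKM in control and 38.7, 47.6 and 36.8 FPKM in C3G libraries, so control replicate 1 was again the highest library, and without it the log2 difference was -0.19 for *Id3* and -0.08 for *Id1*.

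Of 20 BMP ligands, receptors, SMADs and antagonists 13 were measured, with a median log2 difference of 0.09 and 0 calls. The receptor gene *Bmpr1a* averaged 29.2 ± 13.1 FPKM in control and 33.5 ± 9.09 FPKM in C3G cells, and *Smad4*, the shared mediator of the pathway, 13.4 ± 0.709 and 14.5 ± 1.09 FPKM. The inhibitory *Smad6* and the BMP mediator *Smad5* had the smallest p of the list in limma, with log2 differences of -0.43 and 0.37 (adjusted p = 0.992 for both). Without control replicate 1 they were -0.22 for *Smad6* and 0.21 for *Smad5*, and that of *Bmpr1a* turned from 0.27 to -0.17, against 0.07 in replicates 2 and 3 alone. Within all 3 replicate numbers *Bmpr1a*, *Smad4* and *Smad5* were higher and *Smad6* lower with C3G, and none of them was called with the block. One direction in all 3 pairs was found in 25.9% of all genes, and *Smad5* and *Smad6* were named for a small p, which favours it. Genes of other lists showed it too, among them *Kat6a* and *Dlx1*, higher, and *Dlx2*, *Tle5*, *Stub1* and *Id4*, lower.

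Of 21 RUNX2 and SP7 bone targets 16 were measured, with a median log2 difference of 0.00 and 0 calls without the replicate block, and *Bglap*, *Bglap2*, *Ibsp*, *Tnfsf11* and *Alpl* were not analysed here. The type I collagen genes were by far the most abundant, *Col1a1* at 4432.3, 942.2 and 1221.2 FPKM in control and 1477.8, 922.6 and 1245.6 FPKM in C3G libraries, and *Col1a2* with means of 1109.8 ± 770.1 and 726.7 ± 130.1 FPKM. Their log2 differences of -0.53 and -0.41 turned to 0.15 and 0.12 without control replicate 1. With the replicate number as a block, 2 of the 16 targets were called, *Panx3* and *Ifitm5*, in opposite directions, beside 1.5% of all genes. *Panx3*, a channel gene of bone and cartilage, measured 1.21, 3.76 and 3.38 FPKM in control and 3.33, 4.99 and 4.37 FPKM in C3G libraries, higher with C3G within each replicate number. Its log2 difference was 0.53 (SE 0.318 without the block), and the adjusted p in limma was 0.992 without the block and 0.794 with it. The difference was 0.18 without control replicate 1 and 0.31 in replicates 2 and 3 alone. *Ifitm5*, an osteoblast membrane protein gene, measured 1.24, 0.912 and 0.338 FPKM in control and 0.479, 0.506 and 0.0935 FPKM in C3G libraries, lower with C3G within each replicate number. Its log2 difference was -0.41 (SE 0.228 without the block), with the same adjusted p values, and -0.25 without control replicate 1, and its level was at most 1.24 FPKM. *Ifitm5* met the floor of 0.5 FPKM only in control cells, at 0.831 ± 0.458 FPKM, and not in C3G cells, at 0.359 ± 0.231 FPKM. A gene this low is listed only where a group mean passes that floor, so its call is a description only. Both were also called with the block and GC correction together, *Panx3* also in replicates 2 and 3 alone and *Ifitm5* also without control replicate 3.

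**Figure D5:**
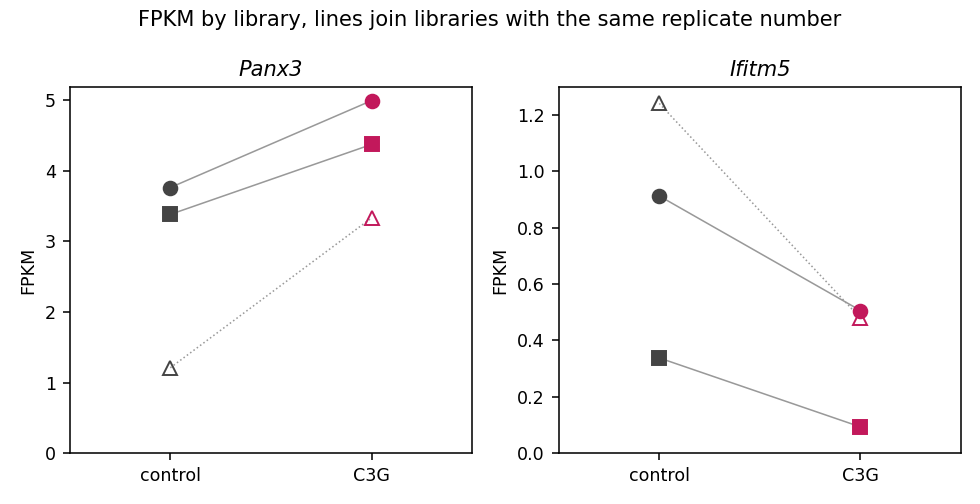
FPKM of *Panx3* and *Ifitm5* in control and C3G libraries, with lines joining libraries of the same replicate number and replicate 1 as open triangles and dotted lines. *Panx3* is higher and *Ifitm5* lower with C3G on all 3 lines. Both genes were named for a small p and called with the replicate block, which favours one direction on all 3 lines. One direction in all 3 pairs was found in 25.9% of all genes.

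Genes with the pattern most like that of *Runx2* and *Twist1* over the 6 libraries were ranked by the root-mean-square difference of centred log2(FPKM + 1) values among 10463 genes with a mean of at least 1 FPKM. For *Runx2* they were *Atxn1* (0.0202), *Zfp967* (0.0276) and *Rapgef2* (0.0328), and each had its lowest value in control replicate 1. For *Twist1* they were *H2-M3* (0.0220), *Adsl* (0.0341) and *Tsfm* (0.0341), each highest in control replicate 1, as *H2-M3* shows at 29.5, 15.8 and 16.0 FPKM in control and 17.7, 17.2 and 15.0 FPKM in C3G libraries. These likenesses describe 6 libraries of which 1 stands apart.

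Exons of 3 of the 9 genes overlap those of a gene on the opposite strand, *Runx1* with Gm26626, *Runx2* with Runx2os1 and *Twist2* with Gm29100. The libraries were made with a stranded kit, but the setting used in counting is not given in the sources used here, so the levels of these 3 genes are uncertain. Of the 75-base stretches of the longest *Runx2* transcript, 0.25% also occur in Gm25956, and for the other 8 genes the share was 0.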

How the data were processed

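FPKM values per gene were computed by the authors with Ballgown and deposited as 1 file per library, with FastQC named for read quality. The submitters' processing notes list cutadapt, HISAT2 2.1.0, StringTie, STAR 2.5.2b and the human build hg19, with no role or order, although the identifiers are mouse Ensembl genes. Raw depth is unknown. Symbols, coordinates, GC content of the longest transcript and exon overlaps were taken from GENCODE M21 (GRCm38), which gave a symbol to 11211 of 11234 genes, and *Tle5* was matched by its older symbol.

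Values were transformed to log2(FPKM + 1), and group was fitted over all 6 libraries with limma 3.58.1 (eBayes with trend) in R 4.3.3. The fit was run on simulated data with independent noise of equal size in all genes and no outlying library. That run does not show how the fit behaves with control replicate 1 set apart. Calls required limma's unadjusted p below 0.05 and a 1.2-fold difference, with Benjamini-Hochberg adjustment over all 11234 genes. Single values were compared by two-sided exact permutation tests in Python 3.11.15 with scipy 1.17.1. Sign-flip tests of the level order were run and are not quoted, since the order came from the same libraries. GC content was corrected with a natural spline of 5 degrees of freedom per library.

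The labels give both groups the replicate numbers 1 to 3. Departures of same-numbered libraries from their group means correlated across genes at 0.653, 0.58 and 0.44 and those of different numbers at -0.64 to 0.307, so the numbers were taken as pairs and the replicate block is given where it changes a call. Unless the block is named, the intervals, SEs and exact permutation p do not use these pairs. They therefore include the spread that libraries of one number share.

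The 9 genes and all lists were chosen with earlier results of these data known. Named genes were the 9, and from each list the called genes, the 2 most abundant and the 2 with the smallest p, plus the 3 nearest in pattern to *Runx2* and *Twist1* and the 2 most abundant markers per list. *Runx3*, *Dlx6*, *Prrx1* and *Prrx2* were named after their values were seen. Some members of the lists are counted but not reported here by name. As alternatives, quantile normalization or median centring was applied, 0.1 was added in place of 1 before the log, genes with a mean FPKM under 1 were dropped, eBayes was run without trend or replaced by an ordinary linear model, the block and the GC correction were used singly and together, and single libraries or both replicates numbered 1 were left out.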

Additional observations from a re-analysis of the deposited data

How the results depend on the processing

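None of the 9 genes was called under any of the 16 alternatives, although *Sp7* and *Msx2* were not tested with the filter on mean FPKM of at least 1. Over all genes the calls moved from 73 to 48 with an ordinary linear model, 169 with the replicate block, 112 with GC correction, 205 with GC correction and the block, 191 with replicates 2 and 3 only, and 40 to 144 when 1 library was left out. The block changed no call among the 9 genes, and of the lists it moved the bone targets only, from 0 to 2, as did GC correction with the block. Replicates 2 and 3 only gave 1 call among the other osteoblast lineage factors and 1 among the bone targets, and leaving out 1 library gave 0 to 1 in each of these lists, the call arising without control replicate 1 in the former and, for *Ifitm5*, without control replicate 3 in the latter. The lists of RUNX cofactors, E and Id proteins and BMP genes had 0 calls under all 16 alternatives.

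Without control replicate 1 the log2 difference turned to -0.03 for *Runx1*, -0.05 for *Runx2*, -0.19 for *Cbfb*, 0.10 for *Msx1*, 0.06 for *Twist1* and 0.03 for *Twist2*, and without C3G replicate 2 to 0.01 for *Sp7*. With replicates 2 and 3 only it turned to -0.04 for *Runx1*, -0.10 for *Cbfb* and 0.01 for *Msx1* and *Twist1*. GC correction moved it to -0.03 for *Twist1* and *Sp7* and -0.18 for *Msx1*, a pseudocount of 0.1 to -0.35 for *Sp7*, 0.27 for *Msx2* and -0.21 for *Twist2*, and quantile normalization to 0.15 for *Runx1*, 0.08 for *Runx2*, 0.06 for *Msx2*, -0.21 for *Sp7* and -0.24 for *Twist2*. The range over libraries left out was -0.19 to 0.80 for *Cbfb*, -0.58 to 0.10 for *Msx1*, -0.03 to 0.40 for *Runx1*, -0.05 to 0.25 for *Runx2*, -0.38 to 0.06 for *Twist1*, -0.29 to 0.03 for *Twist2*, -0.28 to 0.01 for *Sp7*, 0.03 to 0.25 for *Msx2* and 0.10 to 0.53 for *Dlx5*, the lowest values of *Msx2* and *Dlx5* coming without control replicate 1.

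Between-group differences in log2 ratios ranged, with 1 library left out, from -0.30 to -0.01 for *Runx2* to *Runx1*, -0.14 to 0.49 for *Cbfb* to *Runx1* plus *Runx2*, -0.14 to 0.12 for *Twist1* to *Twist2*, -0.66 to 0.12 for *Twist1* to *Runx2*, -1.22 to 0.05 for *Msx1* to *Msx2* and -0.24 to 0.07 for *Msx2* to *Dlx5*. With replicates 2 and 3 only they turned to 0.11 for *Runx2* to *Runx1*, -0.13 for *Cbfb* to *Runx1* plus *Runx2*, 0.09 for *Twist1* to *Twist2* and 0.14 for *Msx2* to *Dlx5*. That of *Twist1* to *Twist2*, 0.00 in the report, was 0.12 after quantile normalization and 0.13 after GC correction. In the same order the differences were -0.11 and -0.08 for *Runx2* to *Runx1* and 0.28 and 0.13 for *Cbfb* to *Runx1* plus *Runx2*. They were -0.33 and -0.20 for *Twist1* to *Runx2* and -0.57 and -0.46 for *Msx1* to *Msx2*. For *Msx2* to *Dlx5* they were -0.21 and -0.26, against -0.10 without either step. In C3G libraries alone the log2 ratio of *Twist1* to *Dlx5* was -0.20. Where fewer libraries remained, the alternative changed both the spread and the samples, and the cause of each change was not tested.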
